A study of Homo sapiens with 3 samples.

Results

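The 10 genes described here encode enzymes that make serine, load its carbon onto folate, and make asparagine and proline: PHGDH, PSAT1, PSPH, SHMT1, SHMT2, MTHFD2, MTHFD1L, ALDH1L2, ASNS and PYCR1. They were taken by gene name from a table of 58735 genes, and each name had 1 row. The table holds RNA-seq of H660, a human prostate cancer cell line, treated for 24 h with the vehicle DMSO (0 µM drug), with 2.5 µM JG231 or with 5 µM JG231, an allosteric inhibitor of the chaperone HSP70. The labels call the cells parental and type them as prostatic adenocarcinoma, while the study treats H660 as a neuroendocrine prostate cancer line. Each condition had 1 library, so no SD or p-value can be given, and a change below is a size and not a test. Values are FPKM, fragments scaled to the exon length of the gene and to the mapped fragments of the library, and changes are log2 ratios after adding 0.1 to each value. A gene was taken as higher or lower when its FPKM was over 1 in either library compared and its log2 change was past 0.25 in size, with a second threshold of 1. Both JG231 libraries were compared with the same DMSO library, so the comparisons at each dose are not independent.

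Serine is made from the glycolytic intermediate 3-phosphoglycerate in successive steps by PHGDH, PSAT1 and PSPH. Serine hydroxymethyltransferase, SHMT1 in the cytosol and SHMT2 in mitochondria, splits serine into glycine and a carbon unit on tetrahydrofolate, and in mitochondria MTHFD2 oxidises that unit, after which MTHFD1L releases it as formate or ALDH1L2 oxidises it to carbon dioxide. ASNS makes asparagine from aspartate and glutamine, and PYCR1 carries out the last step of proline synthesis in mitochondria. Many of these genes are known targets of ATF4, the transcription factor that is translated when the integrated stress response is active, and ATF4 and C/EBP proteins bind together to a composite DNA element.

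RefSeq promoter windows, which run from 250 bases before to 50 bases after a start site on GRCh38.p14, were at hand for 6 of the 10 genes (PHGDH, PSAT1, SHMT1, MTHFD2, MTHFD1L and ASNS), in 10 windows. The motifs searched on both strands were TGATGNAA, the core of the C/EBP-ATF composite element, CACGTG, the E-box bound by MYC proteins, and GAANNTTC, a pair of heat shock element units. TGATGNAA occurred in windows of ASNS and MTHFD1L and in none of the windows of the other 4 genes. It occurred in 3.62% of all 35116 windows of this length, or at least once in 4.46% of the 27305 genes with a window. The sequence upstream of ASNS is shown because ASNS had the largest log2 change at both doses of the 9 genes that passed the filter. ASNS, at 0.767 FPKM in DMSO, passed that filter only through the JG231 libraries. Its first place also depends on the pseudocount, since with a pseudocount of 1 ASNS was at 1.81 and 1.68, below SHMT2 at both doses. The sequence is given on the strand of the gene, read 5′ to 3′ from 250 bases before the start site to the base before it. The capitals mark TGATGNAA, 68 bases before the start, together with an overlapping GAANNTTC match, 64 bases before it.
ASNS upstream, chr7:97872409-97872658, minus strand: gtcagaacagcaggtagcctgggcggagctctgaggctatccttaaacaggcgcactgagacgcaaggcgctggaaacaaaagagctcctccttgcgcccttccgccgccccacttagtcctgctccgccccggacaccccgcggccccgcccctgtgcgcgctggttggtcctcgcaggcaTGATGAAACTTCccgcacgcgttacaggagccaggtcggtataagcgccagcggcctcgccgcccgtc

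The matches of both genes to TGATGNAA are set side by side with 11 flanking bases on each side, and the capitals mark the 8 bases matched. In MTHFD1L the match lies 129 bases before the start site at position 150866486, the same bases lie in the windows of 2 of its other start sites (150866447 and 150866333), and the window at 151007008 held no match. The other ASNS window, at the start site 97872165, held no match to any of the 3 motifs.
ASNS, chr7:97872458-97872487, minus strand: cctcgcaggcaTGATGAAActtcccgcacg
MTHFD1L, chr6:150866346-150866375, plus strand: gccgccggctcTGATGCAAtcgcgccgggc

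CACGTG was present in MTHFD1L alone of the 6 genes, 154 bases before the start at 150866486. It occurred in 7.26% of all windows, or at least once in 8.77% of the genes with a window. GAANNTTC was present in ASNS alone, overlapping the composite element as shown. It occurred in 6.77% of all windows, or at least once in 8.21% of the genes with a window. A match of letters is a description of the sequence and no factor binding was measured here.

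The labelled cell type was checked against marker genes. All 5 neuroendocrine markers looked at (CHGA, SYP, ENO2, NCAM1 and INSM1) were over 1 FPKM, with CHGA at 46.0 FPKM in DMSO, and none of 3 luminal markers (KLK3, KLK2 and TMPRSS2) reached 1 FPKM in any library, KLK2 being listed at 0 throughout. The neuroendocrine markers were lower at 5 µM in 5 of 5 cases and at 2.5 µM in 4 of 5, INSM1 being higher, while 45.1% and 43.4% of all genes tested were lower. Some of these changes were just past the threshold of 0.25 in size, such as -0.25 for SYP at 5 µM and -0.26 for ENO2 at 2.5 µM. The libraries held an estimated 16100000, 20400000 and 24100000 fragments in DMSO, 2.5 µM and 5 µM, read from the steps of the FPKM values. Fewer genes were above 0 in the deeper libraries, 21862 in DMSO, 19352 at 2.5 µM and 17293 at 5 µM. Genes of a single transcript with 2 to 10 fragments numbered 2481, 1528 and 445, against 1947, 1507 and 1454 with 11 to 50 fragments, so low values were scarce at 5 µM. Mitochondrial and small RNA genes took 40.4% of the summed FPKM in DMSO, 24.6% at 2.5 µM and 29.2% at 5 µM. The part of these differences in the changes below was not tested beyond the rescalings reported with them.

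JG231-treated cells had higher RNA levels of 7 of the 10 enzymes at both doses: PHGDH, PSAT1, SHMT2, MTHFD2, MTHFD1L, ASNS and PYCR1. SHMT1, the cytosolic serine hydroxymethyltransferase, was lower at both doses, PSPH stayed within 0.25 of its DMSO level, and ALDH1L2 never passed 1 FPKM. At 2.5 µM 7 enzymes were higher and 1 was lower, while 36.4% of the 15746 genes tested were higher and 43.4% were lower. At 5 µM the counts were again 7 and 1, against 36.5% and 45.1% of 15765 genes. Past a log2 change of 1, 6 enzymes were higher at 2.5 µM, where 12.9% of genes were, and 7 were higher at 5 µM, where 14.7% were. No enzyme past the filter was lower by more than 1 at either dose, whereas 21.7% of genes at 2.5 µM and 24.3% at 5 µM were. ASNS, counted as higher in each case, passed the filter only through the JG231 libraries. A filter on a mean of 5 FPKM or more, which leaves ASNS out, gave 6 higher and 1 lower at each dose at the threshold of 0.25. The shares of all genes were then 48% higher and 26.1% lower at 2.5 µM, and 48.8% and 27.4% at 5 µM. The median log2 change over all 10 enzymes was 1.28 at 2.5 µM and 1.34 at 5 µM. The same median was 0.00 and -0.01 over 13785 genes that averaged 1 FPKM or more, and 0.21 and 0.23 over 7583 genes that averaged 5 FPKM or more. FPKM summed over the 10 enzymes was 183 in DMSO, 501 at 2.5 µM and 579 at 5 µM. RNA from whole cultures cannot tell more RNA per cell from more cells that make it.

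**Figure D1:**
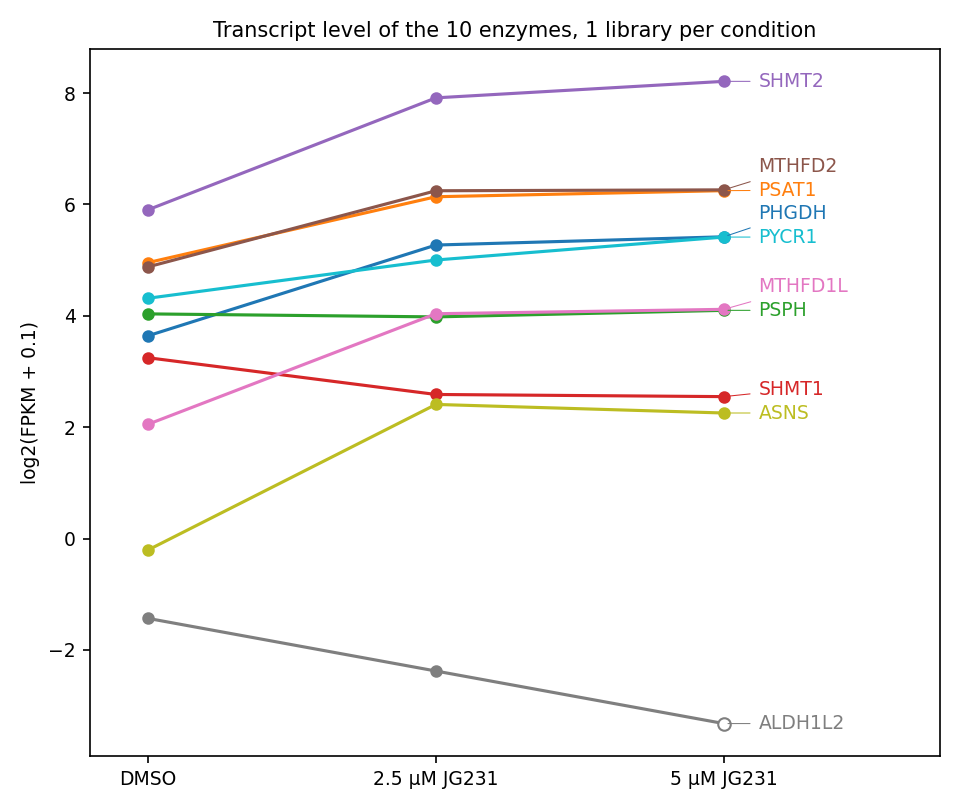
FPKM of each of the 10 enzymes in the DMSO, 2.5 µM and 5 µM JG231 libraries, as log2 of the value after adding 0.1, with 1 point per library and an open point for a value listed at 0. The 7 enzymes that were higher rise between DMSO and 2.5 µM and change less between the doses, PSPH is flat, SHMT1 goes down, and ALDH1L2 lies under 1 FPKM throughout.

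Among the serine synthesis enzymes, PHGDH and PSAT1 rose and PSPH did not. PHGDH (ENSG00000092621, chr1:119648411-119744218, plus strand, GRCh38), the dehydrogenase that commits 3-phosphoglycerate to serine synthesis, was at 12.4 FPKM in DMSO, 38.5 at 2.5 µM and 42.7 at 5 µM. Both JG231 libraries were well above DMSO and close to each other, with log2 changes of 1.63 and 1.78, or 3.11-fold and 3.45-fold in FPKM. PSAT1 (ENSG00000135069, chr9:78297125-78330093, plus strand), the aminotransferase of the next step, was at 30.9, 70.4 and 75.9 FPKM. Its log2 changes were 1.18 and 1.29, a 2.27-fold and a 2.45-fold increase. PSPH (ENSG00000146733, chr7:56011051-56051604, minus strand), the phosphatase that releases serine, was at 16.3, 15.7 and 17.0 FPKM. The PSPH values differed by -0.05 and 0.06 on the log2 scale, less than the threshold at either dose, although rescaling to a common sum without mitochondrial and small RNA genes put PSPH at -0.34 and -0.31 and so among the lower genes. The ratio of PHGDH to PSPH, chosen after the values were seen, was 0.760 in DMSO, 2.46 at 2.5 µM and 2.51 at 5 µM. With canonical transcript lengths this ratio was 2.67, 8.64 and 8.82, so that which of the pair stood higher in DMSO depends on the length used.

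The 2 serine hydroxymethyltransferases moved in opposite directions. SHMT2 (ENSG00000182199, chr12:57229573-57234935, plus strand), the mitochondrial enzyme, was at 59.8 FPKM in DMSO, 241 at 2.5 µM and 296 at 5 µM, the highest of the 10 enzymes in each library. Its log2 changes were 2.01 and 2.31, or 4.03-fold and 4.95-fold, and its level rose from percentile 96.4 in DMSO to percentile 99.1 at 5 µM among genes over 1 FPKM. SHMT2 supplied 32.7% of the FPKM summed over the 10 enzymes in DMSO, 48.1% at 2.5 µM and 51.2% at 5 µM. SHMT1 (ENSG00000176974, chr17:18327860-18363563, minus strand) was at 9.40, 5.91 and 5.75 FPKM. Both treated libraries were below DMSO, with log2 changes of -0.66 and -0.70, so that SHMT1 stood at 0.629 and 0.612 of its DMSO level. SHMT1 held 5.14% of the summed FPKM of the 10 enzymes in DMSO and 0.99% at 5 µM.

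Of the mitochondrial folate enzymes, MTHFD2 and MTHFD1L rose and ALDH1L2 was near the limit of detection. MTHFD2 (ENSG00000065911, chr2:74186172-74217565, plus strand), the dehydrogenase and cyclohydrolase that makes 10-formyltetrahydrofolate, was at 29.3, 75.8 and 76.7 FPKM. The JG231 values were almost equal, with log2 changes of 1.37 and 1.38 against DMSO. Exons of SLC4A5 on the opposite strand overlap 1324 bases of MTHFD2, but SLC4A5 was at 0.349, 0.177 and 0.119 FPKM. MTHFD1L (ENSG00000120254, chr6:150865679-151101887, plus strand), which releases formate from 10-formyltetrahydrofolate, was at 4.05, 16.3 and 17.2 FPKM. Its log2 changes were 1.99 and 2.06, or 4.03-fold and 4.26-fold, the size seen for SHMT2 at 2.5 µM. ALDH1L2 (ENSG00000136010, chr12:105019784-105107643, minus strand), which oxidises 10-formyltetrahydrofolate to carbon dioxide, was at 0.270 FPKM in DMSO, 0.0923 at 2.5 µM and listed at 0 at 5 µM. These values correspond to about 41.3, 17.9 and 0 fragments, and since the gene did not pass 1 FPKM it was neither higher nor lower by the rule used. The methods of the study also keep genes that go to or from 0, by which ALDH1L2 would count as lower at 5 µM and the lower enzymes at that dose would be 2. ALDH1L2 is not among the 11506 protein-coding genes over 1 FPKM in DMSO, of which 124 were listed at 0 at 5 µM. Genes of any level above 0 numbered 21862 in DMSO and 17293 at 5 µM.

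ASNS (ENSG00000070669, chr7:97851677-97872542, minus strand), whose upstream sequence is printed above, rose from a low level. It was at 0.767 FPKM in DMSO, 5.21 at 2.5 µM and 4.67 at 5 µM, on about 60.4, 519.8 and 550.5 fragments, and passed the filter only through the JG231 libraries. Both treated libraries were several times above DMSO, with log2 changes of 2.61 and 2.46, or 6.79-fold and 6.09-fold in FPKM. ASNS held only 0.42% of the summed FPKM of the 10 enzymes in DMSO and 1.04% at 2.5 µM. Its level is uncertain, because 2374 of the 2385 bases of its canonical transcript lie in exons of the long non-coding gene AC079781.5 on the same strand, and how reads were divided between them is not stated. AC079781.5 was at 0.724, 0.434 and 0.281 FPKM, highest in DMSO, where ASNS was lowest, and under 1 in every library. The pseudogene ASNSP1 was at 0.702, 2.84 and 3.11 FPKM. Of the 17 pseudogenes named after the 10 enzymes, 14 were listed at 0 in all libraries and ASNSP1 was the 1 with a mean over 1 FPKM. Adding the ASNSP1 fragments to those of ASNS kept ASNS higher at both doses.

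PYCR1 (ENSG00000183010, chr17:81932384-81942412, minus strand), the mitochondrial pyrroline-5-carboxylate reductase, was at 19.8 FPKM in DMSO, 32.0 at 2.5 µM and 42.6 at 5 µM. Unlike the other enzymes that rose, PYCR1 was past the second threshold of 1 only at the higher dose, with log2 changes of 0.69 and 1.10, or 1.61-fold and 2.15-fold. Among genes tested, its change stood at percentile 79.6 at 2.5 µM and at 87.2 at 5 µM. The changes of the other 6 enzymes that rose stood between percentile 90.0 (PSAT1) and 96.7 (ASNS) at 2.5 µM, and between 90.3 (PSAT1) and 96.4 (ASNS) at 5 µM.

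**Figure D2:**
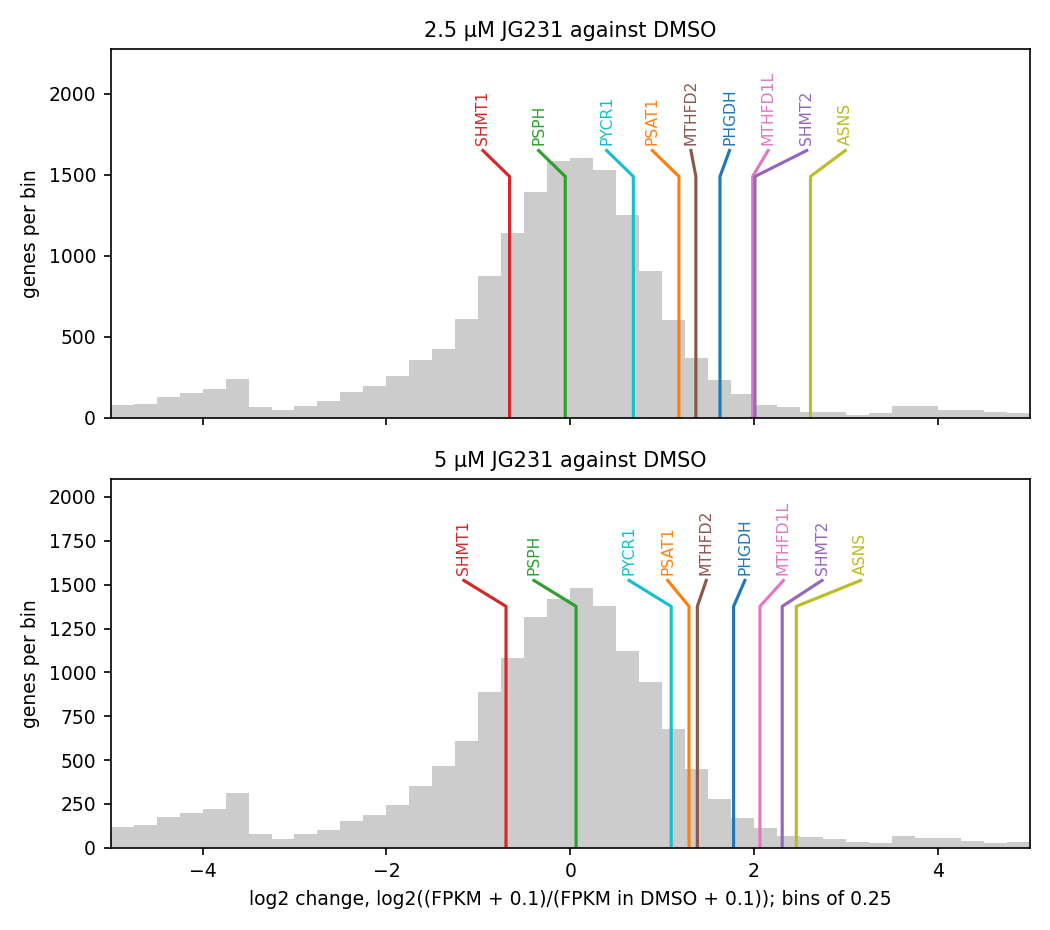
Histogram of log2 changes against DMSO for genes past the expression filter, 15746 at 2.5 µM and 15765 at 5 µM, with the enzymes that passed it marked by name and changes beyond the axis not drawn. Of the 9 enzymes marked, 7 lie to the right of 0.25, SHMT1 lies to the left of -0.25 and PSPH lies near 0 at both doses.

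The 5 µM library was also compared with the 2.5 µM library, which leaves DMSO out. SHMT2, with a log2 difference of 0.30, and PYCR1, with 0.41, were higher at 5 µM, and no enzyme was lower. The shares of all 14197 genes tested were 26.8% higher and 30.1% lower. The other 7 enzymes past the filter differed by between -0.15 (ASNS) and 0.15 (PHGDH) on the log2 scale, and the median over all 10 enzymes was 0.09. The dose difference of SHMT2 had a counting interval of 0.27 to 0.32, but the difference fell to 0.12 when libraries were scaled to a common sum, under the threshold. That of PYCR1 fell to 0.23. As a measure of how far genes of like level scattered between the JG231 libraries, the robust SD of the log2 difference over the 500 genes nearest in mean FPKM was 0.20 for SHMT2 and 0.27 for PYCR1. This spread ranged from 0.20 (SHMT2) to 0.46 (ASNS) over the 9 enzymes, and includes both dose and library. The changes of the 7 higher enzymes against DMSO were larger than it in each case, from 2.53 times the spread (PYCR1 at 2.5 µM) to 11.5 times (SHMT2 at 5 µM), whereas that of SHMT1 was 1.83 and 1.94 times the spread on the lower side.

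The direction of the 7 higher enzymes and of SHMT1 held under every rescaling tried at both doses. Scaling to a common sum taken without the mitochondrial and the small RNA genes shifted the median of all genes averaging 1 FPKM or more to -0.28 at 2.5 µM and -0.38 at 5 µM, and gave the lowest change for each of these 7 enzymes but ASNS. In that scaling PSAT1 was at 0.89 and 0.91 and PYCR1 at 0.40 and 0.72. Among genes past the threshold, 45.6% were higher at 2.5 µM and 44.7% at 5 µM, and this scaling moved the shares to 30.4% and 27.6%, while a filter on a mean of 5 FPKM or more gave 64.8% and 64.1%.

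**Figure D3:**
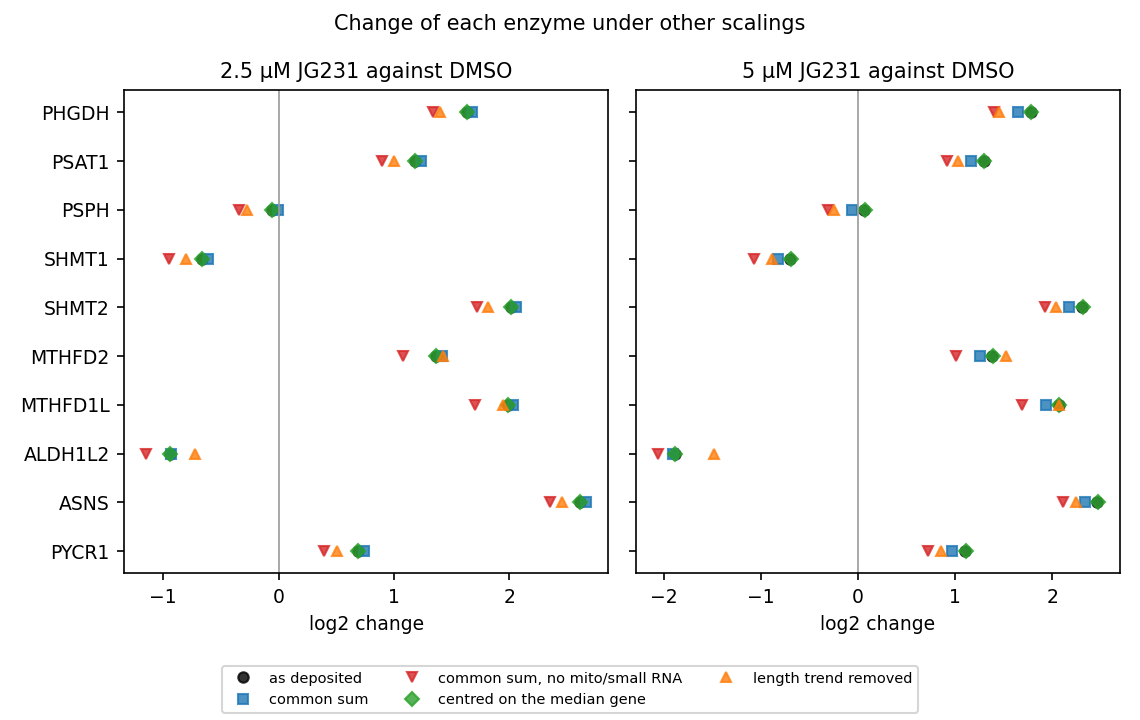
Log2 change of each of the 10 enzymes against DMSO at 2.5 µM (left) and 5 µM (right) JG231 under 5 scalings: values as deposited, a common sum, a common sum that leaves out mitochondrial and small RNA, a shift that sets the median gene to 0, and removal of a trend with transcript length. The 7 higher enzymes stay right of 0 and SHMT1 and ALDH1L2 left of it in each scaling, while PSPH crosses 0 at 5 µM.

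Ratios of isozymes within a library do not depend on scaling between libraries. SHMT2 exceeded SHMT1 6.36-fold in DMSO, 40.8-fold at 2.5 µM and 51.5-fold at 5 µM, with log2 ratios of 2.67, 5.35 and 5.69 and counting intervals within 0.1 of each. Both the rise of the mitochondrial enzyme and the fall of the cytosolic one went into this ratio. MTHFD2 exceeded MTHFD2L, its lowly expressed mitochondrial relative at 1.25 to 1.40 FPKM, 23.4-fold in DMSO, 59.7-fold at 2.5 µM and 54.9-fold at 5 µM. MTHFD1L stood at 0.207 of MTHFD1, the trifunctional cytosolic folate enzyme, in DMSO, and at 1.09 and 1.30 times MTHFD1 in the JG231 libraries. MTHFD1 itself was lower, at 19.5, 15.0 and 13.3 FPKM. ALDH1L2 exceeded its cytosolic relative ALDH1L1 11.9-fold in DMSO and stood at 0.992 of it at 2.5 µM, but ALDH1L1 was at 0.0227 and 0.0931 FPKM and both were listed at 0 at 5 µM, so that this ratio rests on few fragments.

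PYCR1 and a related reductase of proline synthesis also diverged. PYCR3, the cytosolic reductase, was lower, at 12.4, 4.66 and 4.77 FPKM, so that the ratio of PYCR1 to PYCR3 went from 1.60 to 6.86 and 8.93. The differences of these ratios between libraries do not depend on the gene length behind FPKM, but the order of 2 genes within a library does. With the length of the canonical transcript, the log2 ratio of MTHFD1L to MTHFD1 was -4.23, -1.83 and -1.58, so that MTHFD1L was the lower of the pair in all 3 libraries.

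**Figure D4:**
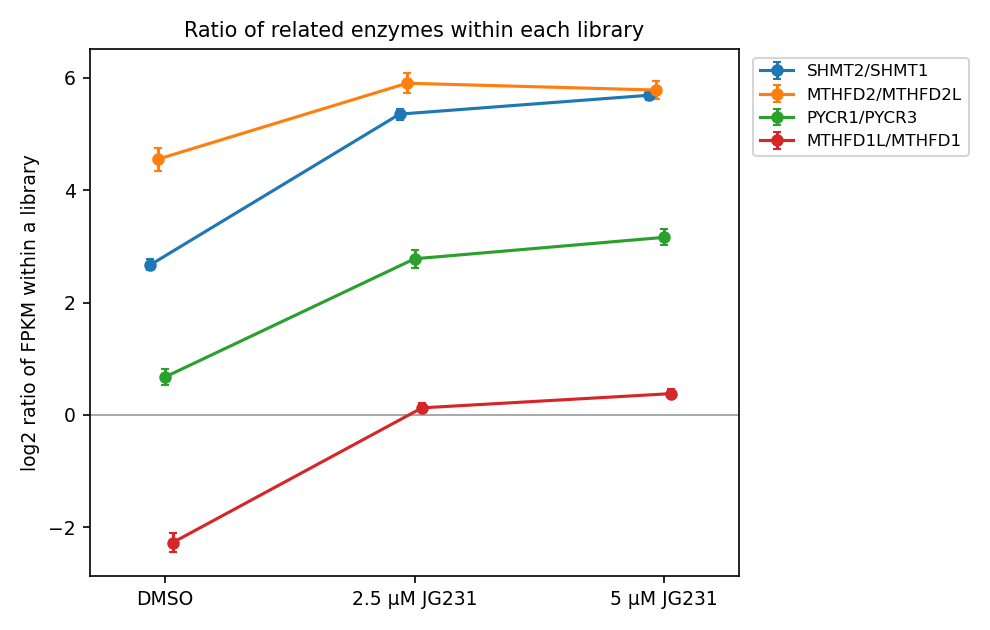
Log2 ratio of the FPKM of 2 related enzymes within each library (DMSO, 2.5 µM and 5 µM JG231), with 95% counting intervals that cover counting error only. SHMT2 over SHMT1 climbs from 2.67 to 5.69, MTHFD1L over MTHFD1 crosses 0, and ALDH1L2 over ALDH1L1 is not drawn.

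Other genes of the pathway were counted in the same way. In 58 further genes of folate, glycine, methionine, proline, aspartate and purine metabolism, 44 passed the filter, of which 13 were higher and 18 lower at 2.5 µM, and 11 were higher and 18 lower at 5 µM. The shares of all genes tested were 36.4% higher and 43.4% lower at 2.5 µM and 36.5% and 45.1% at 5 µM, so that these counts stood near the background. The median log2 change of the 44 genes was -0.15 and -0.14. In the other folate cycle enzymes and carriers, 11 of 14 genes passed, 1 was higher at both doses (MTRR, which keeps methionine synthase active, with log2 changes of 0.64 and 1.07) and 7 and 6 were lower, with a median of -0.87 and -0.49. Without mitochondrial and small RNA genes in the common sum, 9 of the same 11 genes were lower at each dose, with a median of -1.15 and -0.86, and 24.6% of all genes tested were higher and 56.2% lower at 2.5 µM, against 23.0% and 60.1% at 5 µM. The median was -0.29 and -0.35 over the 4 genes that averaged 5 FPKM or more. MTR, the folate-dependent methionine synthase, fell from 4.52 FPKM in DMSO by 1.60 and 1.29 on the log2 scale. GGH, which trims glutamate chains from folates, went from 32.7 to 15.6 and 14.6 FPKM, with log2 changes of -1.06 and -1.16.

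Among 11 genes of glycine cleavage and serine use, 7 passed, with 1 higher and 3 lower at 2.5 µM and 2 higher and 3 lower at 5 µM, and a median of -0.00 and -0.14. Without mitochondrial and small RNA genes in the common sum, 4 of the same 7 genes were lower at each dose, beside 56.2% and 60.1% of all genes. Their median was then -0.29 and -0.51. That scaling also lifted GLDC and GCSH, at 0.953 and 0.913 FPKM in DMSO, over 1 FPKM in DMSO alone. They are not counted, because the counts keep to the genes past the filter as deposited. SPTLC3, at 1.29 FPKM in DMSO, 0.0979 at 2.5 µM and listed at 0 at 5 µM, passed only through DMSO and is counted as lower. GCAT, which splits the threonine product aminoketobutyrate into glycine and acetyl-CoA, rose by 1.84 and 2.02 from 0.532 FPKM in DMSO, about 18.0 fragments, and so passed the filter only through the JG231 libraries. SPTLC2, a subunit of the serine palmitoyltransferase that uses serine for sphingolipids, changed by -1.49 and -1.57, and SRR, serine racemase, by -1.38 and -1.56. In the methionine cycle and transsulfuration, 6 of 9 genes passed, 2 were higher and 2 lower at 2.5 µM and 1 was higher and 2 lower at 5 µM, with a median of -0.20 and -0.06. Without mitochondrial and small RNA genes in the common sum, 1 of the same 6 genes was higher at each dose, 4 and 5 were lower and the median was -0.49 and -0.44, beside the 56.2% and 60.1% of all genes that were lower under that scaling. GNMT, at 0.870 FPKM in DMSO and listed at 0 in both JG231 libraries, did not pass the filter as deposited and is not counted there. CBS, which condenses serine with homocysteine, rose by 1.30 and 1.79 from a level of 0.861 FPKM in DMSO. CBS passed the filter only through the JG231 libraries and was the 1 gene of this list counted as higher at 5 µM. CTH, the next enzyme of that route, had log2 changes of -0.18 and -1.40, and MAT2A, which makes S-adenosylmethionine, had -1.07 and -1.09.

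The aspartate and glutamate enzymes next to ASNS and PYCR1 were mixed. Of 18 such genes 15 passed, with 6 higher and 5 lower at 2.5 µM and 5 higher and 6 lower at 5 µM, at a median of 0.04 and -0.11. The rescaling without mitochondrial and small RNA genes gave 4 higher and 8 lower at 2.5 µM and 4 higher and 9 lower at 5 µM, at a median of -0.25 and -0.49, counts that stood near the shares of all genes under that scaling. ASS1, argininosuccinate synthase, which also consumes aspartate, rose from 1.90 FPKM to 11.3 and 12.2, by 2.51 and 2.62 on the log2 scale, close to the size of the ASNS change. GOT1, the cytosolic aspartate aminotransferase, rose by 1.76 and 2.24, while PYCR3 changed by -1.39 and -1.36. Of 6 purine synthesis genes 5 passed, with 3 higher and 1 lower at 2.5 µM and 2 higher and 1 lower at 5 µM, at a median of 0.29 and 0.21. Under the same rescaling 1 was higher and 2 lower at 2.5 µM and 2 were higher and 2 lower at 5 µM, at a median of 0.00 and -0.17. Of all genes under that scaling, 24.6% were higher and 56.2% lower at 2.5 µM, and 23.0% and 60.1% at 5 µM. PPAT, the first enzyme of purine synthesis, rose by 0.71 and 0.79, PFAS rose by 0.29 and 0.67, and PAICS changed by -0.89 and -0.73. Under some rescalings the median changed sign for the aspartate and glutamate list at 2.5 µM, for the purine list at 5 µM and for the glycine list at 2.5 µM.

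Of 11 transcription factors tied by background knowledge to these enzymes or to the unfolded protein response, 10 passed, of which 9 were higher at 2.5 µM and 10 at 5 µM, against 36.4% and 36.5% of all genes tested, with a median of 1.94 and 2.03 and none lower. ATF5, at -0.17 and 0.88, was the exception at 2.5 µM, where 2 of the rescalings counted it as lower. ATF4 was at 90.6 FPKM in DMSO, 278 at 2.5 µM and 331 at 5 µM, with log2 changes of 1.62 and 1.87. DDIT3, the C/EBP family member CHOP, rose from 24.8 FPKM to 338 and 397 and ATF3 from 12.8 to 152 and 191, while CEBPB went from 54.7 to 434 and 497 FPKM and CEBPG from 36.8 to 178 and 169. MYC was at 4.62, 49.9 and 45.5 FPKM, a log2 change of 3.40 and 3.27, and MYCN, at 0.693, 0.226 and 0.559 FPKM, did not pass the filter. The part of these factors in the changes of the enzymes was not tested.

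**Figure D5:**
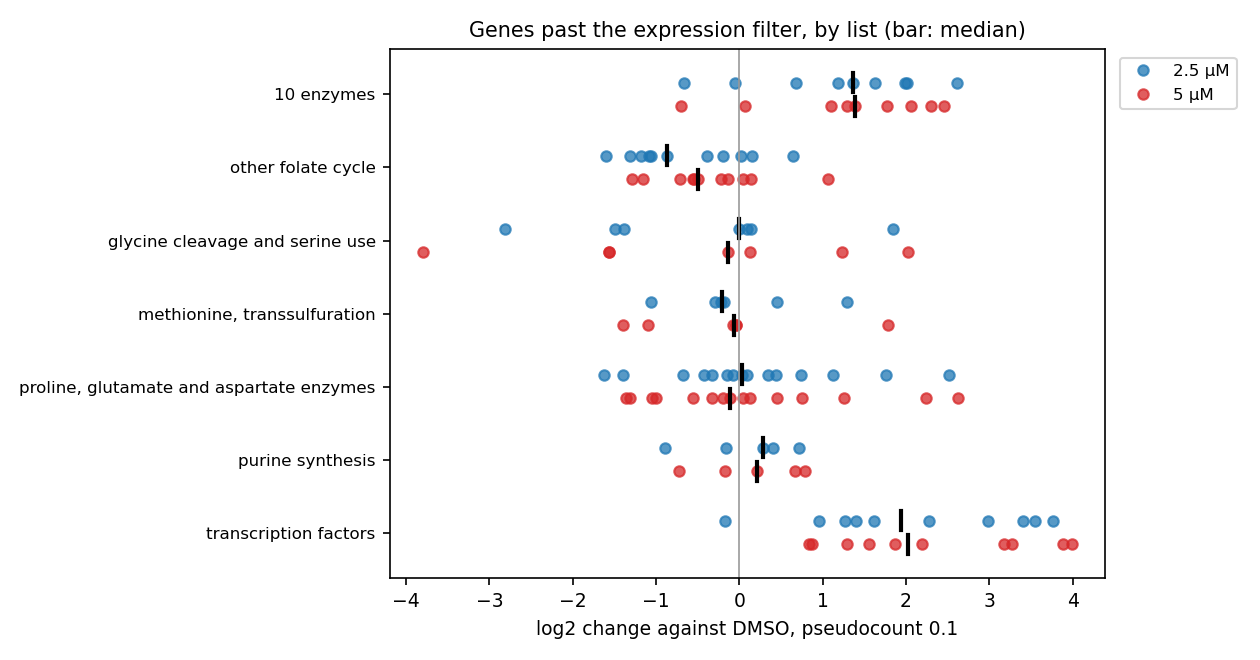
Log2 change against DMSO of each gene past the filter, by list, at 2.5 µM and 5 µM JG231, with a bar at the median of the genes plotted. The 9 enzymes plotted and the transcription factors have medians above 1, the other folate cycle genes lie mostly below 0, and the remaining lists spread on both sides of 0.

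For each enzyme with a log2 change over 1 at both doses, the 3 genes nearest to it in the pair of log2 changes were looked up among the 7583 genes averaging 5 FPKM or more, the distance being taken over these 2 changes. ASNS was nearest to INHBE, BBC3 and LINC01644, at distances of 0.11, 0.12 and 0.16. SHMT2 was nearest to ARID5A, IL32 and PPP3CC (0.03 to 0.06) and MTHFD1L to CCT6P3, AMOTL2 and ARHGEF2 (0.02 to 0.03). PHGDH was nearest to MOB2, WDR25 and KLF4, each at a distance of 0.04 after rounding. PSAT1 was nearest to PPM1D, STK24 and TBPL1 (0.01 to 0.02) and MTHFD2 to AKIRIN2, AUP1 and BOD1 (0.01 to 0.02). The distances of ASNS were the largest of the 6.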

How the data were processed

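RNA was extracted from H660 cells after 24 h with DMSO, 2.5 µM or 5 µM JG231, and 1 mRNA library per condition was sequenced as paired ends. The authors deposited gene-level FPKM values for 58735 Ensembl genes, which account for gene length and mapped fragments, with no further scaling between libraries. The paper's methods name HISAT and StringTie in a TopHat-Cufflinks pipeline, and the submitters' processing notes name HISAT2, featureCounts, GRCh38 and hg38. Versions, the annotation release and the use of strand in counting are not given in the sources used here, and the records and the paper differ on the RNA input.

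Identifiers were matched to GENCODE release 44 on GRCh38 (58207 matched), which gave coordinates and lengths. Depth was estimated from FPKM times summed exon length, where 1 fragment is worth 62.2, 49.1 and 41.6 FPKM bp in DMSO, 2.5 µM and 5 µM. In single-transcript genes under 50 fragments, 90.5%, 88.2% and 86.7% of values were within 0.1 of a whole number of fragments. For genes of several transcripts only 57.2%, 58.1% and 55.4% were, so fragment numbers of the 10 enzymes are approximate and no count test was run. Intervals are 95%, cover counting error only, and are too narrow where fragments are copies of 1 molecule.

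The pseudocount of 0.1, the FPKM filter of 1 and the log2 threshold of 0.25 follow the methods of the study, which also keep genes that go to or from 0. That last step was not applied here. The enzymes, gene lists, thresholds and tests were chosen with earlier results of these data known. Named genes are the 10 enzymes, both genes of each isozyme pair, up to 3 genes per other list with a mean FPKM of at least 1, the same sign at both doses and the largest change at 5 µM, and the 3 genes nearest to each enzyme that changed by over 1 at both doses. ATF4, ATF5, CEBPB, CEBPG, MYCN, SYP, INSM1 and the luminal markers KLK3, KLK2 and TMPRSS2 fall outside this rule. So do GLDC, GCSH, SPTLC3, GNMT, the genes that overlap an enzyme or copy it, and the ratios to PSPH. All of these were picked with their values in view. Some genes of the lists, including ones this rule would name, are not reported here and are left out of all list counts. The alternatives run were other pseudocounts (1 and 0.01), filters, thresholds and scalings, summing of rows with the same symbol, and removal of a trend with length (lowess, fraction 0.3). Summing ASNS with ASNSP1, ratios per canonical transcript length, and rescaled list counts over the genes past the filter as deposited were added after seeing the data. Promoter windows came from RefSeq (GRCh38.p14). The code was tested on simulated data. Python 3.11.15, numpy 2.4.6, pandas 2.3.3, statsmodels 0.14.6 and matplotlib 3.10.9 were used.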

Additional observations from a re-analysis of the deposited data

How the results depend on the processing

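No paired analysis was possible because each condition had 1 library, and for the same reason no library could be left out. The count of 7 higher enzymes against DMSO stayed within 1.5 times at both doses under every alternative run. The count of lower enzymes, 1 at each dose, became 2 with no filter on low values and without mitochondrial and small RNA genes in a common sum, at both doses, and 2 with the length trend removed at 2.5 µM. It became 0 at both doses with a threshold of 1, where SHMT1 no longer passes. For 5 µM against 2.5 µM, the 2 higher enzymes became 0 with a threshold of 1 and with a common sum, and 1 without mitochondrial and small RNA genes and with the length trend removed. The 0 lower became 1 with no filter and with a common sum. The median change of the 10 enzymes moved to 0.98 (2.5 µM) and 0.96 (5 µM) without mitochondrial and small RNA genes and to 1.21 at 5 µM with a common sum, which also turned the median between doses to -0.09 (-0.085). With canonical transcript lengths the log2 ratio of SHMT2 to SHMT1 was 2.29, 4.97 and 5.30 in DMSO, 2.5 µM and 5 µM, and that of MTHFD2 to MTHFD2L was 3.87, 5.22 and 5.10. That of MTHFD1L to MTHFD1 was -4.23, -1.83 and -1.58. That of ALDH1L2 to ALDH1L1 was 1.77 in DMSO and -1.82 at 2.5 µM, and in DMSO 1.59 with a pseudocount of 0.1. These lengths set the level order in a pair and leave its change between libraries as it was. Of the log2 changes of single enzymes over all alternatives and contrasts, 63 moved by at least the distance from the value to the edge of its counting interval (for ALDH1L2 in the contrasts with 5 µM, which have no interval, the robust SD over the 500 genes of like level) and 150 by less, and none past the threshold changed sign. With 1 library per condition, sampling and biological variation could not be measured.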
